A study of Mus musculus with 16 samples.

Results

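Dermal fibroblasts, the cells that make and maintain the collagen matrix of the skin, were compared between old and young mice directly after isolation. Old mice were 18 months and young mice 2 months of age, and all were female C57Bl/6 animals, a common inbred strain with no transgene or treatment named in the labels. The comparison rests on 8 of the 16 arrays of the series: 4 from old and 4 from young mice, chosen by the labels for age and for profiling without culture (in vivo in the labels). The other 8 arrays hold cultured fibroblasts of the same ages and enter only where named. RNA of 5000 cells per mouse was captured on beads and amplified over 23 cycles of cDNA synthesis before hybridisation to an Affymetrix mouse array. Each value is a log2 intensity of the probe set that stands for a gene, so a difference of 1 is a change of 2-fold.

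Skin fibroblasts secrete fibrillar collagens, which form the load-bearing fibres of the dermis, and contribute network, beaded-filament and anchoring collagens at the basement membrane under the epidermis. They also release growth factors, complement proteins and chemokines. With age the dermis thins and its collagen is renewed more slowly. Imprinted genes, which are read from the maternal or the paternal copy alone, include several growth regulators that are highest in the fetus and decline after birth.

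Fibroblast markers were bright in every array: the mean value over 10 markers was 10.79 to 10.88 in young and 10.59 to 10.90 in old arrays. Dcn, which codes for the collagen-binding proteoglycan decorin, had a mean of 12.58 in young and 12.70 in old. The probe set of Pdgfra, another fibroblast marker, was dim at both ages (4.98 and 5.05). Correlations between arrays were 0.977 to 0.992, and the first principal component, with 32.2% of the variance, had all young arrays on one side and all old arrays on the other. Young replicate 3 had a narrower distribution of values, and old replicate 1 lay apart on the second component (20.6% of the variance). RNA integrity and amplification length were read from the signal of 3' probe sets minus that of 5' probe sets, which for Actb averaged -0.41 ± 0.07 in young arrays and -0.46 ± 0.11 in old arrays (SD, 4 arrays each); the exact permutation test gave a two-sided p of 0.514. For Gapdh it was -0.08 ± 0.04 in young and -0.15 ± 0.02 in old arrays, which did not overlap (exact permutation test, p = 0.0286, the smallest that 4 against 4 arrays can give). Its part in the results below was not tested.

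Of 14557 genes tested, 131 were higher (0.9%) and 65 lower (0.447%) in old fibroblasts at an adjusted p under 0.05 (limma, Benjamini-Hochberg over all genes tested), together 196 genes or 1.35%. At an unadjusted p under 0.05 there were 2187 genes (15%). All 196 had non-overlapping values at the 2 ages, as did 1254 genes in all (8.61%). The lower genes had the larger changes: 36 of the 65 fell by 2-fold or more, against 28 of the 131 that rose, and the median change was -1.05 among lower and 0.72 among higher genes. The median over all tested genes was 0.02, with 53.1% of genes above 0 and 46.2% below. Higher genes made up 66.8% of calls with the deposited scaling, 43.8% when arrays were scaled to their 75th percentile, and 51.2% with cyclic loess. Quantile normalisation of the 8 arrays gave 115 higher and 102 lower genes, so the balance of directions depends on the scaling. The number of calls also depends on single arrays. It was 62 without young replicate 2, 62 without old replicate 2, 66 without young replicate 3, 94 without young replicate 4, 100 without old replicate 3, 119 without old replicate 4, 137 without young replicate 1 and 320 without old replicate 1. A core of 46 genes, 19 higher and 27 lower, was called whichever array was left out. In a bulk sample of this kind, fewer cells of a type and less RNA per cell cannot be told apart.

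**Figure D1:**
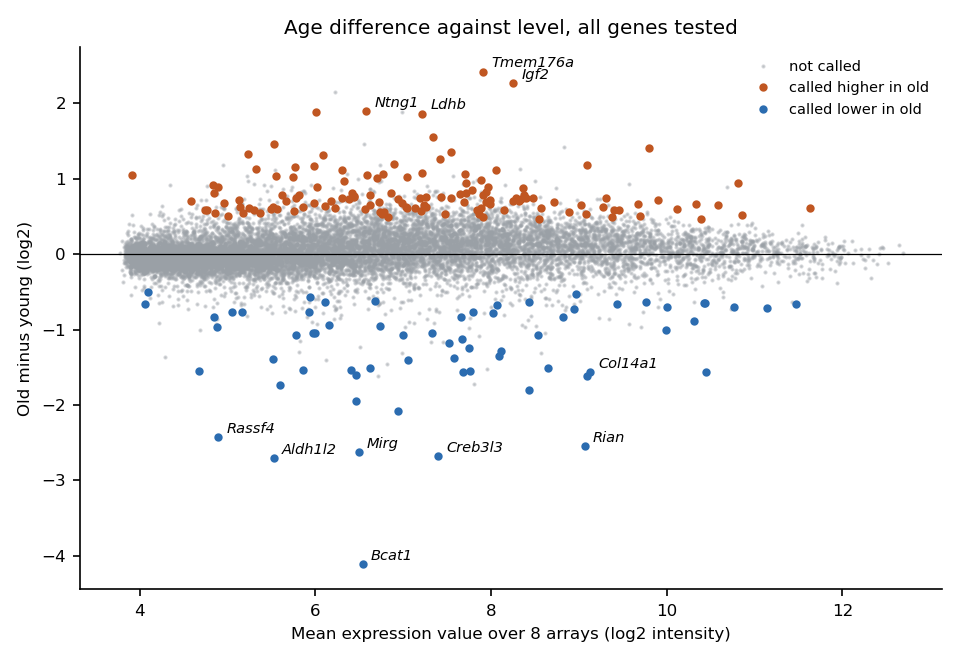
Old minus young difference (log2, vertical) against the mean log2 value over the 8 arrays (horizontal), 1 point per gene tested; the 131 genes called higher are orange, the 65 called lower blue, the others grey. Bcat1 lies alone at -4.12, followed by 5 labelled genes between -2.43 and -2.70, while the largest rise is that of Tmem176a at 2.42.

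The noncoding genes of the imprinted Dlk1-Dio3 locus formed a block of large decreases. Meg3, Rian and Mirg are neighbouring genes on chromosome 12 that are read from the maternal copy, yield long noncoding RNAs and carry clusters of small RNAs inside them. Meg3 was 11.28, 11.21, 11.28 and 11.13 in the young and 9.61, 9.64, 9.90 and 9.50 in the old arrays. Rian was 10.34, 10.14, 10.44 and 10.44 in young against 8.06, 7.69, 7.79 and 7.63 in old. Mirg was 8.04, 7.42, 7.87 and 7.89 in young against 4.59, 5.18, 5.11 and 5.84 in old. Every old array was below every young array for each of the 3 genes. Meg3 fell by 1.56 (SE 0.11, adjusted p = 5.5e-05), Rian fell by 2.55 (SE 0.12, adjusted p = 4.25e-06) and Mirg fell by 2.62 (SE 0.23, adjusted p = 0.000337; limma), that is 2.95-, 5.85- and 6.17-fold. All 3 calls held under every alternative setting. Dlk1, the paternally read gene of the locus, which codes for a membrane protein that holds back fat cell differentiation, was near background at both ages (4.63 and 4.43) and was not called (-0.20, adjusted p = 0.526).

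**Figure D2:**
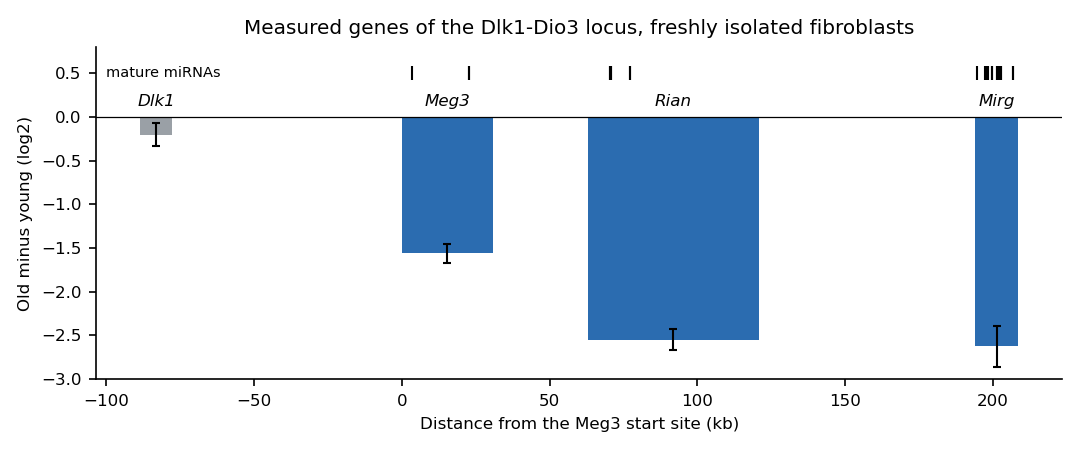
Old minus young difference (log2, bars, with the standard error of the fit) of the measured genes of the Dlk1-Dio3 locus, drawn at their distance in kb from the Meg3 start site; ticks mark mature miRNAs inside Meg3, Rian and Mirg. The 3 noncoding genes (blue, called) lie between -1.56 and -2.62, and Dlk1 (grey, not called) lies at -0.20.

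The Meg3 promoter is shown because it starts the first RNA of this block of 3 and holds a full cAMP response element, the letters that CREB-type transcription factors bind. The sequence, from RefSeq (GRCm38.p6, chr12:109540746-109540995, plus strand), gives the 250 bases before the start site, with the element in capitals, 57 to 50 bases before the start.
Meg3: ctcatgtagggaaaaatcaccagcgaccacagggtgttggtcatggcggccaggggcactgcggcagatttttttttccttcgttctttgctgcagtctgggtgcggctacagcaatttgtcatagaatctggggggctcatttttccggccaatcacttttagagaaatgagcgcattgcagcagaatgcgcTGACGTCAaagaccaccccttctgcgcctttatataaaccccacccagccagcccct
The letters TGACGTCA, searched on both strands in the 250 bases before each start, were present for 318 of 11622 tested genes with a promoter sequence (2.74%). They were present for 3 of 50 genes called lower (6%: Meg3, Peg3 and Fscn1) and for 1 of 102 called higher (0.98%: Cdkn2b). An AP-1 site, TGACTCA, was found for 5 of 50 lower genes (10%), for 8 of 102 higher genes (7.84%) and for 4.58% of tested genes. The amino acid response letters TGATGNAAN were found for 1 of 50 lower genes (2%), for 2 of 102 higher genes (1.96%) and for 2.57% of tested genes. A match describes the letters and not a bound site.

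Inside the 3 noncoding genes the RefSeq miRNA table places 14 hairpins and 28 mature sequences, 10 of the hairpins within Mirg. Meg3 has 1 counted hairpin but mature forms of both miR-1906 and miR-770. Not every mature sequence thus has its hairpin in the count. The array values are those of the long host RNAs and not of mature miRNAs, whose levels were not analysed here. A selection is printed to show what these transcripts carry, with the seed (bases 2 to 8, the part that pairs with target RNAs) in capitals. The first is from Meg3, the next 2 are from Rian and the others from Mirg.
mmu-miR-770-3p: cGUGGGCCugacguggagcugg
mmu-miR-341-3p: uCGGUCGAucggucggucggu
mmu-miR-370-3p: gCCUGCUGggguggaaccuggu
mmu-miR-453: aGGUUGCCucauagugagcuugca
mmu-miR-496a-5p: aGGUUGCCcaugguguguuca
mmu-miR-154-5p: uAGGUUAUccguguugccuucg
mmu-miR-377-3p: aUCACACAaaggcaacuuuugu
mmu-miR-409-3p: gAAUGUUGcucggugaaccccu
mmu-miR-369-3p: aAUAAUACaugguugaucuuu
mmu-miR-410-3p: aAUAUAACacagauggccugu
The 28 mature sequences hold 27 distinct seeds. The pair miR-453 and miR-496a-5p shares a seed; the others in the selection are each unlike.

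Among 21 imprinted genes tested, 5 fell (Meg3, Rian, Mirg, Peg3 and Plagl1) and 1 rose (Igf2), with a list median of -0.07. The shares over all genes were 0.447% and 0.9%. Meg3, Rian and Mirg are neighbours in the same locus, so the 5 falls are not 5 separate loci. Igf2, the fetal growth factor read from the paternal copy, was 6.99, 7.26, 6.99 and 7.23 in the young and 9.52, 9.71, 9.74 and 8.60 in the old arrays. The lowest old array was thus above the highest young array, and the rise was 2.27 (SE 0.23, 4.84-fold, adjusted p = 0.000765, limma). Peg3, a zinc finger protein read from the paternal copy, was 7.15, 7.29, 6.99 and 7.27 in young and 6.36, 5.44, 5.83 and 4.95 in old arrays. The ages did not overlap, and Peg3 fell by 1.53 (SE 0.25, adjusted p = 0.0175, limma). Plagl1, a zinc finger factor of the same growth-regulating group, fell from a mean of 10.50 to 9.49 (-1.01, SE 0.19, adjusted p = 0.0322, limma). The mean over the probe sets of Plagl1 gave -0.98 with no call (adjusted p = 0.0599), and the fit of all 16 arrays gave 0.0705. Peg3 was no longer called without young replicate 2, 3 or 4 or old replicate 2 (adjusted p 0.0528 to 0.0661). Plagl1 was lost without old replicate 2 or 4 or any young replicate (adjusted p 0.0541 to 0.0932). Imprinted genes that were not called include Grb10, an inhibitor of insulin and IGF receptors (-0.04), the cell cycle inhibitor Cdkn1c (0.28) and Ndn (0.30).

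The rise of Igf2 was not accompanied by a call elsewhere in the IGF axis, in which 1 of 12 tested genes was called. Igf1, the growth factor that predominates after birth, had means of 10.41 and 10.61 (0.20, adjusted p = 0.579). The shared receptor Igf1r had means of 8.45 and 8.87 (0.42, adjusted p = 0.117). Binding proteins ranged from -1.17 for Igfbp3 (adjusted p = 0.671) to 0.14 for Igfbp5 (limma).

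Bcat1 had the largest change of the comparison with the probe set used here. Bcat1, the cytosolic aminotransferase that takes the first step of leucine, isoleucine and valine breakdown, was 9.18, 8.59, 8.44 and 8.18 in the young arrays. In the old arrays it was 4.22, 4.23, 4.64 and 4.84, close to the 95th percentile of the poly-A control probe sets (4.42), a guide to background. The gap between the ages exceeded 3 log2 units in every pair of arrays. Bcat1 fell by 4.12 (SE 0.21, 17.3-fold, adjusted p = 6.44e-06, limma). RMA compresses differences near background. The other probe sets of Bcat1 had differences of -1.01 and -1.31. The mean over all its probe sets fell by 2.15, less than Rian (-2.95), Aldh1l2 (-2.70), Creb3l3 (-2.67) and Mirg (-2.62) by the same measure. None of the other enzymes of the pathway was called lower. Of 20 tested genes, 16 lay above 0, against 53.1% of all genes, with a median of 0.21. At an unadjusted p under 0.05 there were 9, with 7 above 0 and 2 below, Bcat1 among the 2. Bcat2, the mitochondrial aminotransferase, had means of 7.88 and 8.13 (0.25, adjusted p = 0.529). Aldh6a1, a mitochondrial dehydrogenase late in valine breakdown, rose from 6.58 to 7.31 (0.73, SE 0.15, adjusted p = 0.0452, limma). That call was lost when any array but young replicate 1 was left out (adjusted p 0.0536 to 0.116). The subunits of the branched-chain ketoacid dehydrogenase, Bckdha, Bckdhb and Dbt, had differences of 0.27, 0.40 and 0.39, none of them called.

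Aldh1l2, the mitochondrial enzyme that oxidises a formyl-folate and yields NADPH, was 7.60, 6.89, 6.75 and 6.27 in young and 4.54, 4.16, 4.20 and 3.81 in old arrays. No old array reached the lowest young value, and the old mean lay under the poly-A level. Aldh1l2 fell by 2.70 (SE 0.25, adjusted p = 0.000439, limma), and it was the single call among 18 tested genes of serine and folate one-carbon metabolism (list median 0.02). Phgdh, which starts serine synthesis, had a difference of -0.12, and the mitochondrial Shmt2 had one of -0.05. A separate list of 31 tested genes induced by the amino acid stress factor ATF4 did not include Aldh1l2. It held 0 calls (limma), with 5 genes at an unadjusted p under 0.05 and a median of -0.05. Cyclic loess gave 1 call in that list.

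Creb3l3 codes for a transcription factor that is held in the endoplasmic reticulum membrane until it is cut free, and is best known from liver. Its values were 8.87, 8.68, 8.77 and 8.62 in young and 5.87, 6.20, 6.20 and 5.98 in old arrays. The spread within each age was small against the gap between them, and Creb3l3 had the lowest adjusted p of the comparison (2.07e-06, limma) with a fall of 2.67 (SE 0.11, 6.38-fold). The other 6 tested genes of this list, the related factors and the proteases that release them, were not called. Creb3l1, the family member of collagen-secreting cells, had means of 9.86 and 9.58 (-0.28, adjusted p = 0.501), and Creb3l2 had means of 8.66 and 8.94.

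**Figure D3:**
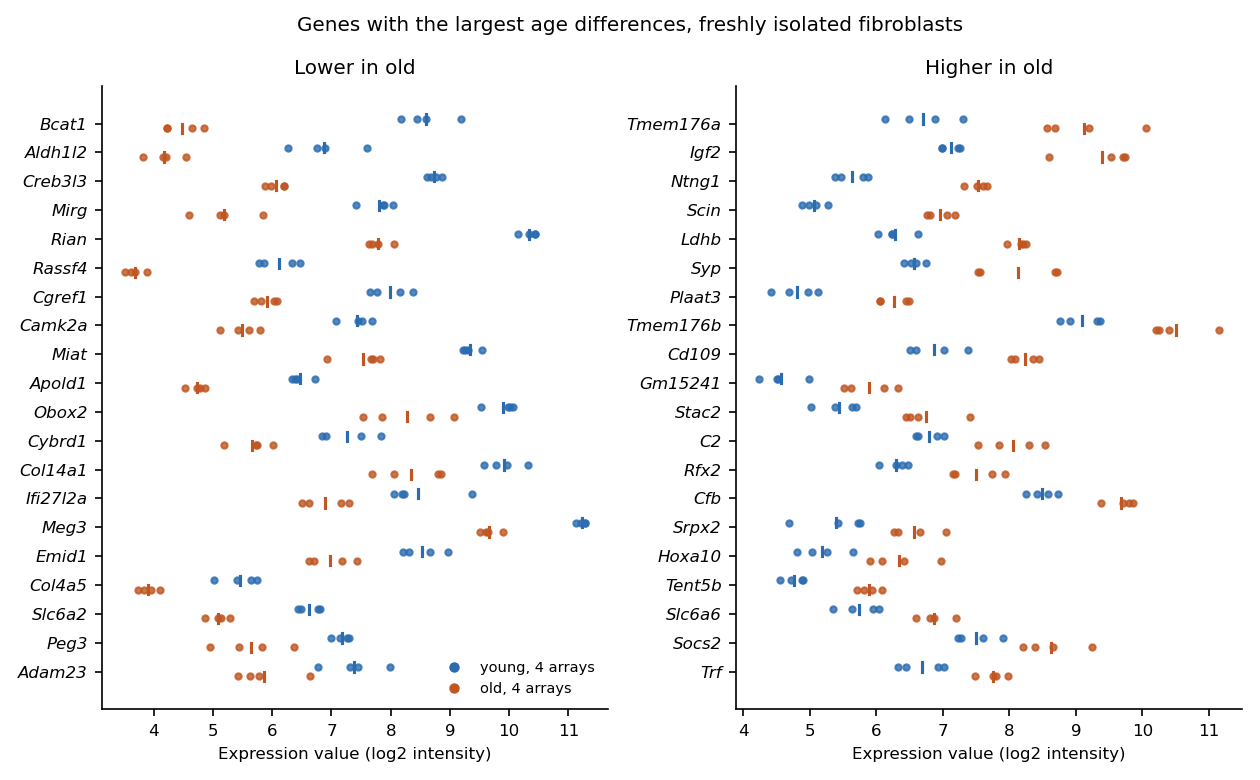
Log2 values of the 20 genes with the largest decrease and the 20 with the largest increase in old fibroblasts; each point is 1 array (blue young, orange old, 4 each) and the short bar is the group mean. The ages do not overlap for any of the 40 genes, which the choice of the genes requires.

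Further large decreases were spread over signalling, transport and noncoding genes. Rassf4, an adaptor with a Ras-association domain, fell by 2.43 (SE 0.16, adjusted p = 5.5e-05), from 5.77 to 6.46 in young arrays down to 3.52 to 3.89 in old arrays, under the poly-A level. Cgref1, a secreted calcium-binding regulator of growth, fell by 2.08 (adjusted p = 0.00015), and Camk2a, the alpha subunit of a calcium/calmodulin kinase best known from neurons, fell by 1.95 (adjusted p = 0.000262). The long noncoding RNA Miat went from 9.22 to 9.54 in young arrays to 6.92 to 7.82 in old arrays (-1.80, adjusted p = 0.000917). Apold1, an early response gene of vessel walls, fell by 1.74 (adjusted p = 5.5e-05), and Slc6a2, the noradrenaline transporter, fell by 1.53 (adjusted p = 0.000231). Emid1, an extracellular protein with an EMI domain and collagen repeats, fell by 1.56 (adjusted p = 0.00937, limma). All 7 calls were kept whichever array was left out. With the mean over all probe sets Camk2a fell by 0.89 (adjusted p = 0.00145) and Rassf4 fell by 1.49 (adjusted p = 0.000126, limma); single further probe sets of Camk2a ran from -0.12 to -1.72. Apold1 was not called in the fit of all 16 arrays (0.0851).

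Weaker calls stood at the same size of change. Obox2 fell by 1.62 (adjusted p = 0.0288), but its probe set may pick up other members of the Obox homeobox family, and the mean over its probe sets fell by 0.65 with no call (adjusted p = 0.0885). Ifi27l2a, an interferon-induced gene, fell by 1.57 (adjusted p = 0.0292), and Adam23, an adhesion protein without protease activity, fell by 1.52 (adjusted p = 0.0344, limma). Obox2 was lost without old replicate 2 or any young replicate (up to 0.0941), Ifi27l2a without old replicate 2, 3 or 4 or young replicate 2 or 3 (up to 0.0794), and Adam23 without old replicate 2 or 3 or young replicate 1, 3 or 4 (up to 0.0991). Ifi27l2a was the single call among 34 interferon-induced genes. Of these, 26 lay above 0, against 53.1% of all genes, with a median of 0.16.

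Collagens were lower in old fibroblasts in part of the family. Among 10 fibrillar collagen genes 2 fell, and among 22 other collagens 5 fell. None rose, and the share called lower over all genes was 0.447%. All 10 fibrillar and 19 of the 22 other collagen genes lay below 0, against 46.2% of all genes, with medians of -0.21 and -0.40. After cyclic loess the numbers below 0 were 9 of 10 and 18 of 22. The fibrillar calls were 3 under each other scaling, and those of the other collagens 8 after the 75th percentile. Of the type I collagen chains, Col1a2 was 8.77, 8.55, 8.79 and 8.88 in young and 7.84, 8.01, 8.38 and 8.22 in old arrays, with no overlap, and fell by 0.64 (SE 0.13, adjusted p = 0.0488, limma). Col1a1, whose mean of 12.58 in young arrays lies near the top of the scale, had a difference of -0.12 (adjusted p = 0.601), and Col3a1 one of -0.12 (adjusted p = 0.587). The difference between the 2 type I chains was not tested. The Col1a2 probe set was much dimmer than that of Col1a1, with a mean of 8.75 in young arrays. This limits how far it stands for the gene. Col5a2, a chain of the type V collagen that seeds thin fibrils, fell by 0.66 (adjusted p = 0.0286), and its partner Col5a1 had a difference of -0.64 (adjusted p = 0.0573).

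Outside the fibrillar class, Col14a1, a fibril-associated collagen that spaces fibrils, was 9.57, 9.97, 9.78 and 10.31 in young and 7.68, 8.85, 8.79 and 8.05 in old arrays. The highest old array lay below the lowest young array, and Col14a1 fell by 1.57 (SE 0.26, 2.96-fold, adjusted p = 0.021, limma). Among the basement membrane collagens, Col4a5 fell by 1.54 (adjusted p = 0.00102) to a level under the poly-A controls (-0.87 with the mean over its probe sets, adjusted p = 0.00251), and Col4a2 fell by 0.73 (adjusted p = 0.0357). Col7a1, which forms the anchoring fibrils under the epidermis, fell by 1.05 (adjusted p = 0.0303), and Col6a3, a chain of beaded-filament collagen, fell by 0.70 (adjusted p = 0.0473, limma). Frem1, part of a basement membrane complex with Fras1, fell by 1.07 (adjusted p = 0.0126). It comes from a short list made after values were seen, in which Fras1 had a difference of -0.55 (adjusted p = 0.0556). Col4a5 and Frem1 were called whichever array was left out. Col14a1 was lost without young replicate 2, 3 or 4 (up to 0.073) and Col5a2 without old replicate 2 or any young replicate (up to 0.0854). Col7a1 was lost without old replicate 2 or 4 or young replicate 1, 2 or 3 (up to 0.0948), and Col4a2 without old replicate 2 or 3 or any young replicate (up to 0.1). Col1a2 was lost without any array but old replicate 3 (up to 0.132), and Col6a3 without any but old replicate 1 (up to 0.121).

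Enzymes that modify and crosslink collagen were not called (0 of 21, limma). At an unadjusted p under 0.05 there were 9, all below 0. In all, 17 lay below 0, against 46.2% of all genes, with a median of -0.20. Other scalings gave 4 lower calls among the 21 after the 75th percentile, and 2 each after cyclic loess and quantile normalisation. The prolyl hydroxylase subunit P4ha2 had a difference of -0.96 (adjusted p = 0.0884), the crosslinking oxidase Lox one of -0.93 (adjusted p = 0.0777), and the lysyl hydroxylase Plod1 one of -0.67 (adjusted p = 0.0531). The collagen chaperone Serpinh1 had one of -0.39 (adjusted p = 0.223). Of 20 metalloproteinases and inhibitors, 1 was called: Adamts4, which cuts large proteoglycans, fell by 1.07 (adjusted p = 0.0461, limma), a call lost without any array but old replicate 3 (up to 0.119). Small leucine-rich proteoglycans and elastic fibre genes had 0 calls among 11 and 15 genes (limma; 0 and 3 at an unadjusted p under 0.05), with medians of -0.04 and -0.02. The 75th percentile and cyclic loess each gave 1 elastic fibre call. Among 17 matricellular proteins Sparcl1, a relative of the collagen-binding protein SPARC, rose by 0.75 (adjusted p = 0.0434), a call lost without any array but old replicate 1 (up to 0.112) and under each other scaling (up to 0.0671).

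**Figure D4:**
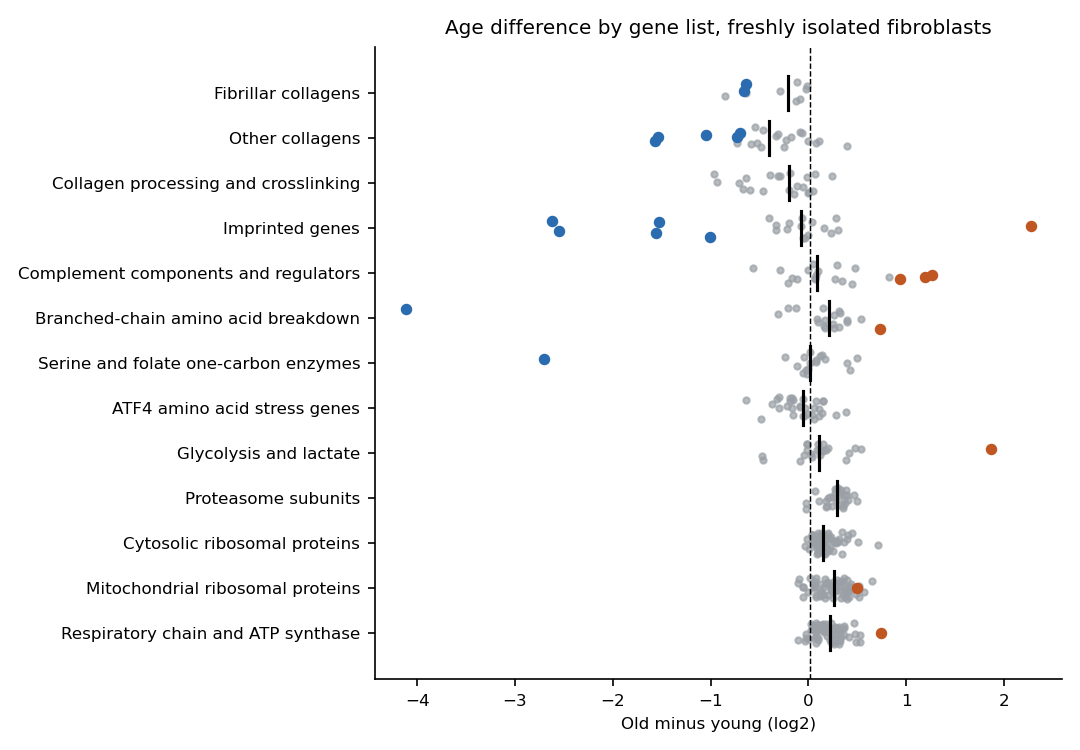
Old minus young difference (log2) of each tested gene in 13 gene lists; points called higher are orange, called lower blue, not called grey, the thick bar is the list median and the dashed line the median over all genes (0.02). Collagen lists lie left of the line, the proteasome, ribosome and respiratory chain lists lie right of it with few calls, and Bcat1, Aldh1l2, Igf2 and Ldhb stand far from the rest of their lists.

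The largest rise was that of Tmem176a, and its neighbour Tmem176b rose as well. Both code for membrane proteins of the MS4A-like family and are known mainly from immune cells. Tmem176a was 6.13, 6.49, 7.30 and 6.88 in young and 10.05, 8.56, 8.69 and 9.19 in old arrays. Tmem176b was 8.76, 8.91, 9.36 and 9.31 in young and 11.15, 10.25, 10.20 and 10.40 in old arrays. For both genes old replicate 1 was the highest array, and the ages did not overlap. Tmem176a rose by 2.42 (SE 0.33, 5.36-fold, adjusted p = 0.00888) and Tmem176b by 1.42 (SE 0.22, 2.67-fold, adjusted p = 0.0149, limma). Tmem176a kept its call whichever array was left out; Tmem176b lost it without young replicate 2 (0.0571).

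Markers of immune cells did not move in 1 direction beside these genes. Of 10 macrophage and monocyte markers tested, 1 was called: Csf1r, the receptor that macrophages need to survive, fell from a mean of 7.53 to 6.46 (-1.07, SE 0.15, adjusted p = 0.00937, limma). Cd68 was at 8.09 and 8.10, Ctss had a difference of 0.96 (adjusted p = 0.0714), and the dim Fcgr3 one of -0.54 (adjusted p = 0.0573, limma). At an unadjusted p under 0.05 there were 3 of the 10, 1 above 0 and 2 below. The 75th percentile scaling gave 2 lower calls among the 10. The mean over the 10 markers was 5.45 to 5.70 in young and 5.48 to 5.72 in old arrays. Pan-leukocyte markers had 0 of 6 calls (limma, 0 also unadjusted), with means of 4.44 to 4.77 in young and 4.56 to 4.67 in old arrays. Dendritic cell markers had 0 of 10 calls (limma), with 6 above 0 and 4 below. At an unadjusted p under 0.05 there were 2, both above 0: H2-Ab1 (0.415) and Zbtb46 (0.26). T cell, B cell, neutrophil and mast cell markers had 0 calls among 8, 5, 7 and 4 genes (limma), with 0, 1, 0 and 0 unadjusted. Keratinocyte markers, 0 of 11 called (limma; 0 also unadjusted), averaged 5.02 to 5.28 in young and 5.01 to 6.30 in old arrays, so old replicate 1 (6.30) lay above all young arrays and the other old arrays (5.09, 5.01 and 5.15) did not. The keratin Krt5 was 9.68 in old replicate 1. Without that array Tmem176a rose by 2.11 (adjusted p = 0.00321) and Tmem176b by 1.20 (adjusted p = 0.00574, limma). Endothelial markers had 0 of 12 calls (limma), with 6 above 0 and 5 below. Their means were 5.11 to 5.25 in young and 5.25 to 5.50 in old arrays. At an unadjusted p under 0.05 there were 2, both above 0: Kdr (0.77) and Eng (0.32). The 3 adipocyte markers tested all lay above 0 with 0 called (limma), the largest being Fabp4 (0.91, adjusted p = 0.227). The part of these immune, keratinocyte, endothelial and fat cells in the age differences was not tested.

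Of 20 tested complement components and regulators, C2, Cfb and C4b rose and none fell, with a median of 0.09. The share called higher over all genes was 0.9%, and each other scaling gave 2 higher calls in this list. Each of the 3 codes for a part of an enzyme complex that cleaves C3, the central complement protein. Cfb, the protease of the alternative pathway, was 8.58, 8.25, 8.41 and 8.73 in young and 9.79, 9.86, 9.71 and 9.37 in old arrays. C2, its counterpart in the classical pathway, was 6.91, 6.62, 6.59 and 7.02 in young and 8.54, 8.29, 7.84 and 7.53 in old arrays. C4b was 9.89, 10.41, 10.42 and 10.64 in young and 11.65, 11.10, 10.92 and 11.46 in old arrays. The ages did not overlap in any of the 3. Cfb rose by 1.19 (SE 0.14, adjusted p = 0.00281), C2 by 1.26 (SE 0.21, adjusted p = 0.0183) and C4b by 0.94 (SE 0.19, adjusted p = 0.0462, limma). Cfb and C2 are adjacent genes on chromosome 17, and C4b has a near-identical copy, C4a, from which its probe set may not tell it. C2 was lost without old replicate 2 or young replicate 2 or 3 (up to 0.0707), and C4b without any array but old replicate 3 (up to 0.107) and under each other scaling (up to 0.0742). The inhibitor Serping1 had a difference of 0.10 and the C1 protease subunits C1s1 and C1ra had differences of 0.30 and 0.44, none of them called.

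Ccl19, a chemokine that guides lymphocytes and dendritic cells, rose from a mean of 10.26 to 10.91 (0.65, adjusted p = 0.0466, limma). It was the single call among 31 chemokines and interleukins, and leaving out any single array ended the call (adjusted p 0.0588 to 0.117), as did each other scaling (up to 0.0744); near-identical gene copies add to the doubt. Ccl2 and Cxcl12 had differences of 0.50 and 0.47, and Il6 had one of -0.47, none called.

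Of 12 netrin and netrin receptor genes, a list drawn up after values were seen, 3 rose and 1 fell. The shares over all genes were 0.9% and 0.447%. Ntng1, a membrane-anchored netrin, was 5.80, 5.47, 5.38 and 5.88 in young and 7.61, 7.31, 7.52 and 7.67 in old arrays. The old arrays all lay above the young, and Ntng1 rose by 1.90 (SE 0.14, 3.72-fold, adjusted p = 6.7e-05, limma). With the mean over all probe sets Ntng1 rose by 1.06 (adjusted p = 0.00251) and Unc5b fell by 0.86 (adjusted p = 0.00999, limma). The secreted netrins Ntn1 and Ntn4 rose by 0.51 (adjusted p = 0.0243) and 0.70 (adjusted p = 0.0393). Unc5b, a netrin receptor, was 8.19, 7.70, 7.74 and 7.38 in young and 6.10, 6.83, 6.25 and 6.22 in old arrays. With no overlap between the ages, Unc5b fell by 1.40 (SE 0.19, adjusted p = 0.00937, limma). The other receptors Neo1 and Dcc had differences of -0.68 and -0.17 and were not called. Ntng1 and Unc5b were called whichever array was left out, while Ntn1 and Ntn4 were lost without old replicate 2, 3 or 4 or young replicate 2, 3 or 4 (up to 0.0755 and 0.113). Ntn1 was also lost with the mean over its probe sets (0.37, adjusted p = 0.0969) and after the 75th percentile (0.0522).

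Ldhb, the lactate dehydrogenase subunit that favours the use of lactate, was 6.03, 6.24, 6.23 and 6.62 in young and 8.25, 8.20, 8.17 and 7.96 in old arrays. The ages were well apart, and Ldhb rose by 1.86 (SE 0.13, 3.64-fold, adjusted p = 6.59e-05, limma). It was the single call among 22 genes of glycolysis and lactate transport; Ldha, the subunit that favours lactate production, had means of 10.54 and 10.63. Kcnj8, the gene next to Ldhb that codes for a potassium channel subunit and serves as a pericyte marker, rose by 1.06 (adjusted p = 0.0488, limma). That call was lost without any array but old replicate 1 (up to 0.131), with the mean over probe sets (0.0503), after cyclic loess (0.0655) and after quantile normalisation (0.0637), and Kcnj8 was the single call among 9 pericyte and smooth muscle markers, whose mean was 6.03 to 6.20 in young and 5.97 to 6.34 in old arrays. The pericyte marker Rgs5 was near background (4.80 and 4.56).

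Scin, an actin-severing protein, rose by 1.89 (SE 0.13, adjusted p = 5.5e-05, limma), from 4.88 to 5.28 in young arrays up to 6.76 to 7.18 in old arrays. Plaat3, a phospholipase and acyltransferase of fat cells, rose by 1.46 (adjusted p = 0.00249), and Cd109, a membrane protein that dampens TGF-beta signalling, by 1.36 (adjusted p = 0.00937). Plaat3 was the single call among 33 adipogenic and lipid handling genes. Slc6a6, the taurine transporter, rose by 1.12 (adjusted p = 0.0149) and Tent5b, of a family of poly(A) polymerases, by 1.12 (adjusted p = 0.00129, limma). Each of these 5 genes was called whichever array was left out. Rfx2, a factor for genes of cilia, rose by 1.20 (adjusted p = 0.0149), but its 2 other probe sets had differences of -0.02 and 0.05, and their mean with the first gave 0.41 with no call (adjusted p = 0.0885). Tent5b was not called in the fit of all 16 arrays (0.0997).

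Of 19 iron genes, 1 fell and 1 rose, against 0.447% and 0.9% of all genes. Cybrd1, a membrane reductase that prepares ferric iron for uptake, was 7.83, 6.91, 6.84 and 7.50 in young and 5.18, 5.73, 6.01 and 5.74 in old arrays, and fell by 1.60 (SE 0.24, adjusted p = 0.0126, limma). Trf, the iron carrier transferrin, rose by 1.07 (adjusted p = 0.0168), a call lost without young replicate 3 (0.0612). The ferritin genes Fth1 and Ftl1 had differences of 0.01 and 0.18, and Tfrc, the transferrin receptor, had one of -0.17, none called among the 17 further genes of the list.

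Several rises were close to the threshold. The synaptic vesicle gene Syp rose by 1.56 (adjusted p = 0.025) with its 4 old arrays in 2 pairs, 7.53 and 7.56 against 8.69 and 8.71, and by 0.79 with the mean over its probe sets (adjusted p = 0.05, limma). Socs2, a feedback inhibitor of growth hormone signalling, rose by 1.12 (adjusted p = 0.0434), Srpx2, a secreted sushi-repeat protein, by 1.17 (adjusted p = 0.0483), and Stac2 by 1.31 (adjusted p = 0.0228). The predicted gene Gm15241 rose by 1.33 (adjusted p = 0.0154, limma). The 34 Hox and limb identity genes had a median of 0.11, and 0.9% of all genes were called higher. Among the 34, Hoxa10 and Hoxc9, members of the positional Hox code, rose by 1.16 (adjusted p = 0.0467) and 0.71 (adjusted p = 0.0303, limma). Leaving out 1 array ended each of these calls for at least 1 array: young replicate 2 for Gm15241 (0.0572), young replicate 2 or 3 for Stac2 (up to 0.0741), and old replicate 2 or any young replicate for Syp (up to 0.0792). It did so for old replicate 2, 3 or 4 or young replicate 2, 3 or 4 for Hoxa10 (up to 0.132) and Hoxc9 (up to 0.0814), for all but old replicates 1 and 3 for Socs2 (up to 0.125), and for all but old replicate 1 for Srpx2 (up to 0.116). With the mean over probe sets Socs2 (0.87, adjusted p = 0.0602) and Srpx2 (1.17, adjusted p = 0.0503) were not called, nor were they after quantile normalisation (0.0731 and 0.0566). Hoxc9 was not called in the fit of all 16 arrays (0.0709).

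Genes of protein and energy machinery lay above 0 in large part, with 2 calls among 4 lists. Among 30 proteasome subunits, 28 lay above 0 with a median of 0.30 and 0 were called (limma; 15 at an unadjusted p under 0.05, against 15% of all genes). Among 64 cytosolic ribosomal proteins, 62 lay above 0 with a median of 0.15 and 0 were called (limma; 17 unadjusted). Mitochondrial ribosomal proteins had 65 of 71 above 0 (median 0.27) with 1 call, Mrpl38 (0.50, adjusted p = 0.0473). Respiratory chain and ATP synthase subunits had 66 of 70 above 0 (median 0.22) with 1 call, the complex I subunit Ndufa12 (0.74, adjusted p = 0.0427, limma). Over all genes 53.1% lay above 0. Other scalings moved these numbers: after the 75th percentile they were 27 of 30, 55 of 64, 59 of 71 and 59 of 70, after cyclic loess 27, 58, 57 and 61, and after quantile normalisation 28, 61, 58 and 62, so most members lay above 0 under each. Mrpl38 was lost without any single array (up to 0.118), another of its probe sets had the opposite sign, and each other scaling ended its call (up to 0.087). Ndufa12 was lost without old replicate 2, 3 or 4 or young replicate 2, 3 or 4 (up to 0.117). The mean over probe sets gave no call for Mrpl38 (0.17, adjusted p = 0.424) or Ndufa12 (0.49, adjusted p = 0.0799).

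The RNA exosome, which degrades and trims nuclear and cytoplasmic RNA, was looked at after Exosc genes were seen among the calls. Of 11 tested genes, Exosc8, Exosc9 and Exosc10 rose and 10 lay above 0, with a median of 0.54. Over all genes 0.9% were called higher and 53.1% lay above 0. Exosc9 was 6.27, 6.03, 5.91 and 6.01 in young and 6.84, 6.78, 6.70 and 6.94 in old arrays, without overlap, and rose by 0.76 (SE 0.11, adjusted p = 0.0116, limma), a call kept whichever array was left out. Exosc8 rose by 0.76 (adjusted p = 0.0464) and Exosc10, a catalytic subunit, by 0.58 (adjusted p = 0.0271), but both were lost without old replicate 2, 3 or 4 or young replicate 2, 3 or 4 (up to 0.112 and 0.0851). The other 3 probe sets of Exosc10 had differences of 0.24, 0.18 and 0.07, and the mean over its probe sets gave 0.27 with no call (adjusted p = 0.275). Tomm70a, a receptor for import into mitochondria, rose by 0.89 (adjusted p = 0.0271) and Agrn, a proteoglycan of basement membranes, by 0.74 (adjusted p = 0.0468, limma). They too come from lists made after values were seen, and each was lost without 6 of the 8 arrays in turn (up to 0.082 and 0.134): old replicates 2, 3 and 4 and young replicates 2, 3 and 4 for Tomm70a, old replicates 1, 2 and 3 and young replicates 2, 3 and 4 for Agrn. The mean over probe sets ended both calls (Tomm70a 0.51, adjusted p = 0.0574; Agrn 0.78, adjusted p = 0.123), and each other scaling ended that of Agrn (up to 0.0878).

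Genes often read in studies of senescence held 1 call. Among 25 cell cycle inhibitors, p53 targets and lamina genes, Cdkn2b, an inhibitor of CDK4 and CDK6, rose from 4.47 to 5.05 (0.58, adjusted p = 0.0487, limma), and leaving out any single array ended the call (up to 0.115), as did the 75th percentile scaling (0.0756). Cdkn2a, which codes for p16 and p19ARF, was near background (4.19 and 4.42, difference 0.23, adjusted p = 0.285), and Cdkn1a had means of 11.49 and 11.40. DNA replication (0 of 29 called, limma; 5 unadjusted) and mitosis genes (0 of 22; 4 unadjusted) had medians of 0.19 and 0.03. Contractile and myofibroblast genes had 0 of 18 calls (limma; 3 unadjusted), with Acta2, the smooth muscle actin of myofibroblasts, at 5.99 and 6.37. Endoplasmic reticulum chaperones had 0 of 24 calls (limma; 2 unadjusted) and a median of -0.06.

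Signalling and antioxidant lists each held at most 1 call. Bmp5, a ligand of the BMP pathway, fell by 1.04 (adjusted p = 0.0271), and Fzd7, a Wnt receptor, rose by 0.63 (adjusted p = 0.0473), although another of its probe sets gave 0.04 and the mean over them 0.33 with no call (adjusted p = 0.205). Jun, an immediate early factor of AP-1, fell by 0.65 (adjusted p = 0.0432) among 28 immediate early genes with a median of -0.07. Its other probe set went from 10.70 to 10.43 (-0.27, adjusted p = 0.29), and the mean over both fell by 0.46 with no call (adjusted p = 0.0798, limma). Gclm, of glutathione synthesis, rose by 0.60 (adjusted p = 0.022) and Gstt1, a glutathione transferase, by 0.61 (adjusted p = 0.0183, limma). In their lists 21 of 26 and 14 of 17 genes lay above 0, against 53.1% of all genes. After the 75th percentile these counts were 19 and 12, against 5731 of all 14557 genes. Tfpi, an inhibitor of coagulation, rose by 0.87 (adjusted p = 0.0464, limma). Bmp5 was lost without old replicate 2 or any young replicate (up to 0.0845), Fzd7 without any array but old replicate 1 and young replicate 1 (up to 0.132), and Jun without any but old replicate 3 (up to 0.118). Gclm was lost without old replicate 2 or 4 or young replicate 2, 3 or 4 (up to 0.0684), Gstt1 without old replicate 2 or 3 or young replicate 3 (up to 0.0633), and Tfpi without any but old replicate 1 (up to 0.119). Quantile normalisation ended the calls of Fzd7 (0.0523) and Tfpi (0.0518).

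Whether these differences were particular to fresh cells was tested as the age difference in fresh cells minus that in cultured cells, over all 16 arrays. That difference of differences was called for 90 of 14557 genes (0.618%, limma), 60 with a more positive and 30 with a more negative age difference in fresh cells (41 and 52 when arrays were scaled to their 75th percentile). Of the 196 genes called in fresh cells, 76 were among them (38.8% of the 196 and 84.4% of the 90). The fresh-cell age difference enters both tests, so this overlap is in part built in and nothing is read from its size. Across the 196, the median size of the age difference was 0.76 in fresh and 0.09 in cultured cells; the genes were chosen by their difference in these fresh arrays, so nothing is read from the larger fresh value. Bcat1 had an age difference of 0.03 after culture, Aldh1l2 of 0.06 and Creb3l3 of 0.30, against -4.12, -2.70 and -2.67 in fresh cells. Cultured means in young and old were 10.76 and 10.80 for Bcat1, 8.92 and 8.98 for Aldh1l2, and 5.35 and 5.65 for Creb3l3. Rassf4 (3.41 and 3.48), Scin (3.58 and 3.58), C2 (4.17 and 4.10) and Gm15241 (4.00 and 3.99) also had called differences of differences. In culture they lay under the poly-A level of the fresh arrays (4.42) at both ages, where an age difference could not be seen. For Meg3, Rian and Mirg the difference of differences was not called (adjusted p = 0.395, 0.0993 and 0.237, limma), and their cultured age differences were -0.64, -0.74 and -0.87. Hoxa10 differed by 1.16 in fresh and by 1.18 in cultured cells, with no call in culture. The cultured cells came from the same mice, so the 2 age comparisons are not independent. The count of 90 was 201 without old replicate 1, 162 without young replicate 1 and 47 to 57 without cultured young replicate 1, 2 or 4 or cultured old replicate 2 or 4.

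**Figure D5:**
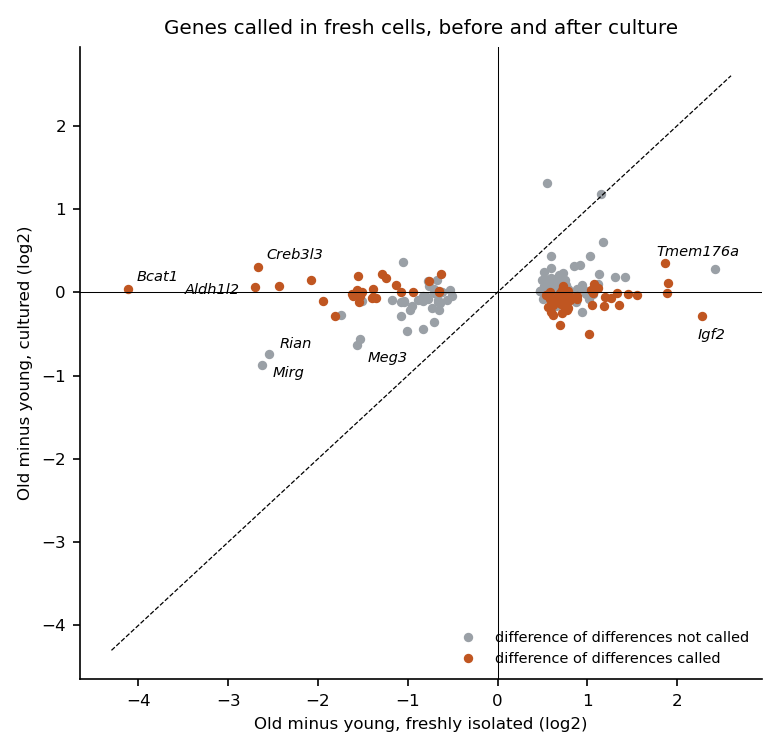
Age difference (old minus young, log2) in cultured cells (vertical) against that in fresh cells (horizontal) for the 196 genes called in fresh cells; orange marks the 76 genes whose 2 age differences differ, and the dashed line marks equal values. Most points lie near 0 on the vertical axis, with a median size of 0.09 in culture against 0.76 in fresh cells, a contrast that the choice of genes by their fresh-cell call builds in.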

How the data were processed

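The authors deposited log2 values of 45141 probe sets on 16 arrays. Per the submitters' processing notes these were made with RMA and affy (versions not given in the sources used here); no source states the base of the logarithm, and base 2 was inferred from how far the values reach. RMA compresses differences of dim genes and usually equalises the distributions of arrays, but the 75th percentiles of the deposited fresh arrays ran from 6.46 to 6.66, so these distributions are not equal. Probe sets with 1 gene symbol in the platform annotation (28898) were used, and the probe set with the highest mean over the 16 arrays stood for each of 17097 genes. Genes above 3.87 (the 25th percentile of all values) in at least 4 of the 8 fresh arrays were tested, 14557 in all. Old and young were compared on these 8 arrays with limma 3.58.1 (lmFit, eBayes; R 4.3.3), two-sided, Benjamini-Hochberg adjusted, called under 0.05. The difference of differences was fitted on 16 arrays. Steps were tested on simulated data. Mice are the replicates, and the number of arrays limits the precision. The labels do not tie arrays to collection days, which held equal numbers of each age. No pair of arrays was identical (0 pairs).

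Named genes are the 20 largest changes in each direction among called genes with no overlap, the called members of each gene list (at most 6), and central members with their values. The comparison, its gene lists and tests were chosen with earlier results of these data known. Promoters, miRNAs and gene order are from RefSeq (GRCm38.p6).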

Additional observations from a re-analysis of the deposited data

Results flagged for a closer look

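In 4 of 144 groups of 4 arrays examined, 1 array lay far from the others of its age; chance gives about 1 in 20. Young replicate 2 was low for Obox2 (9.52, the others 9.98 to 10.07). Young replicate 4 was high for Ifi27l2a (9.37, the others 8.05 to 8.23), low for Col7a1 (6.07, the others 6.60 to 6.69) and low for Frem1 (6.19, the others 6.35 to 6.36).

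For 36 of the 72 named genes the age difference in fresh cells minus that in cultured cells was called (limma, all 16 arrays). The share over all genes was 0.618%. Named genes were chosen as called in fresh cells, and that difference is a term of this value. A high share among them is thus in part built in. Among metabolic and regulatory genes that fell in fresh cells, it was -4.15 for Bcat1, -2.76 for Aldh1l2, -2.97 for Creb3l3, -2.50 for Rassf4, -2.23 for Cgref1 and -1.84 for Camk2a. It was -1.52 for Miat, -1.60 for Obox2, -1.56 for Cybrd1, -1.55 for Ifi27l2a, -1.48 for Slc6a2 and -1.34 for Unc5b. For matrix genes it was -1.59 for Col14a1, -1.75 for Emid1, -1.43 for Col4a5, -0.67 for Col5a2 and -1.07 for Frem1.

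Among genes that rose in fresh cells it was 2.56 for Igf2, 1.79 for Ntng1, 1.90 for Scin, 1.51 for Ldhb, 1.59 for Syp, 1.48 for Plaat3, 1.51 for Cd109 and 1.34 for Gm15241. It was 1.33 for C2, 1.36 for Cfb, 1.26 for Rfx2, 1.07 for Slc6a6, 0.97 for Trf, 0.80 for Ndufa12 and 0.83 for Gclm. The remaining values were 1.09 for Ntn4, 0.80 for Exosc9, 0.91 for Exosc8 and 0.96 for Tomm70a. Rassf4, Scin, C2 and Gm15241 were under the poly-A level in culture at both ages, where an age difference could not be seen.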

How the results depend on the processing

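Of the 72 named genes, 27 were called under all 19 alternatives and none had the other sign in any of them. Leaving out 1 array gave 30 to 224 genes called higher, 30 to 96 called lower and 47 to 201 with a called difference of differences. Array quality weights gave 282 higher and 128 lower genes, and fitting all 16 arrays gave 671 and 236. The number called lower was 123 after scaling to the 75th percentile, 103 after cyclic loess, 102 after quantile normalisation and 106 with a trended, robust variance. Of the named genes, 18 lost their call with no filter on dim genes (adjusted p 0.0541 to 0.0724, limma) and 14 with the mean over all probe sets. The cause was not tested. Leaving out both arrays that stood apart (young replicate 3 and old replicate 1), an alternative chosen after seeing the data, gave 111 higher and 62 lower genes. No paired analysis was possible because the labels do not say which arrays share a collection day or a mouse. Signal over background limits 9 called genes whose lower group lay under the poly-A controls.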
